A study of Mus with 18 samples.

Results

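The genes described here are 37 mouse genes that cells switch on when interferon reaches them and whose products act against viruses. They are the rows of both expression tables of the study whose symbol is on a list of names, and all 37 were found among the 21401 gene symbols of each table. RNA had been sequenced from C2C12 cells, a line of mouse myoblasts that can fuse into muscle fibres, and from the gastrocnemius, a calf muscle, of male C57BL/6 mice, both wild type by their labels. The study asked how lipopolysaccharide (LPS), a part of the bacterial cell wall that triggers inflammation, changes RNA levels, and how moringa isothiocyanate-1 (MIC-1), a compound from moringa seeds, alters that response. Each experiment had 3 groups of 3 libraries, 18 libraries in all. The C2C12 groups, by label, were a saline vehicle control, LPS at 1 μg/mL, and that dose with MIC-1 at 10 μM for 24 h. The muscle groups were a saline vehicle control, LPS at 10 mg/kg into the abdominal cavity, and the same LPS dose after MIC-1 at 80 mg/kg in 10% DMSO by gavage on 3 days, with muscle collected 16 h after LPS. By label, DMSO was given to the muscle LPS-MIC-1 group only, so its part cannot be told apart from that of MIC-1. The age of the mice is not given in the sources used here. MIC-1 was never given without LPS, so the LPS-MIC-1 libraries can be set only against LPS and against control. Levels are FPKM, a read number scaled to transcript length and to library depth, so that levels of different genes can be set side by side.

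Interferons are secreted proteins that bind receptors on neighbouring cells. The receptors act through the kinases Jak1 and Tyk2 on transcription factors, Stat2 and Irf9 among them, which enter the nucleus and raise the transcription of interferon-stimulated genes. LPS can start this sequence through Tlr4 and the adaptor Ticam1, which lead to interferon beta in macrophages. Some of the products sense foreign nucleic acid, some degrade or bind viral RNA, some block viral entry or budding, and Usp18 limits the response.

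Before the levels can be read, the cell type named in the labels has to be set against marker genes. In the C2C12 table, the summed level of 10 myoblast markers was 0.136 to 2.12 FPKM in the control libraries and 0.364 to 2.32 in the LPS libraries, and 978 to 1217 in the LPS-MIC-1 libraries. Myod1, the master regulator of the myoblast lineage, had 0, 0 and 0.0293 FPKM in control, 0, 0 and 0.0355 in LPS and 56.7, 49.5 and 55.7 in LPS-MIC-1. The summed level of 11 macrophage markers went the other way, with 9355 to 9413 FPKM for control, 6265 to 6438 for LPS and 251, 78.4 and 90.4 in the LPS-MIC-1 libraries. The markers thus go against the label myoblast in the 6 libraries labelled control and LPS, and groups are named here by their labels only. Treatment with MIC-1 and this change of marker content coincide in the C2C12 experiment and cannot be told apart. LPS-MIC-1 replicate 1 also stood apart from its replicates, with Lyz2, a macrophage lysozyme, at 48.8, 1.87 and 0.616 FPKM in replicates 1 to 3. In muscle, the 10 markers of muscle fibres summed to at least 159351 FPKM in every library, and LPS-MIC-1 replicate 3 had a macrophage sum of 171 FPKM, with 13.8 to 23.2 in the other 8. Read numbers are not given, but by the commonest ratio of low values, the least deep library was replicate 3 of LPS-MIC-1 in C2C12, at 0.465 times the depth of control replicate 1, and the 9 muscle libraries lay between 0.988 and 1.11.

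Differences were tested with limma on log2(FPKM + 0.1) over all genes with a mean above 1 FPKM in the experiment, and a log2 fold change below is a difference on that scale, which understates the change of genes near 0. To be called, a gene had to differ by over 1 on the log2 scale, in either direction, with an adjusted p (Benjamini-Hochberg over all genes tested) under 0.001 in C2C12 or 0.05 in muscle. The filter kept 36 of the 37 genes in C2C12, all but Mx1, and 29 in muscle. Of those 29, Ifitm1, Oas1a, Oasl1, Samd9l, Trim21 and Zbp1 (6 genes) had means of at most 1 FPKM in both control and LPS and passed only through their LPS-MIC-1 libraries, so a difference in these was a condition of their being tested. Cmpk2 and Isg20 had control means over 1 FPKM, but their control and LPS libraries together averaged under 1, so they too needed their LPS-MIC-1 libraries to pass. In C2C12, the control and LPS-MIC-1 libraries of Ifit3, Herc6 and Mx2 together averaged under 1 FPKM. These genes passed only through their LPS libraries, and the same limit holds for their differences from LPS. Nothing in the labels says that replicates came from separate cultures, and p-values then measure only the spread between these libraries. The Ifit, Ifitm, Oas, Oasl and Mx genes belong to families of related genes, and reads can be shared between copies of similar sequence, so single values in these families may be uncertain. With 3 libraries against 3, an exact two-sided permutation test of a single gene cannot go below p = 0.1, the value reached wherever the groups do not overlap.

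**Figure D1:**
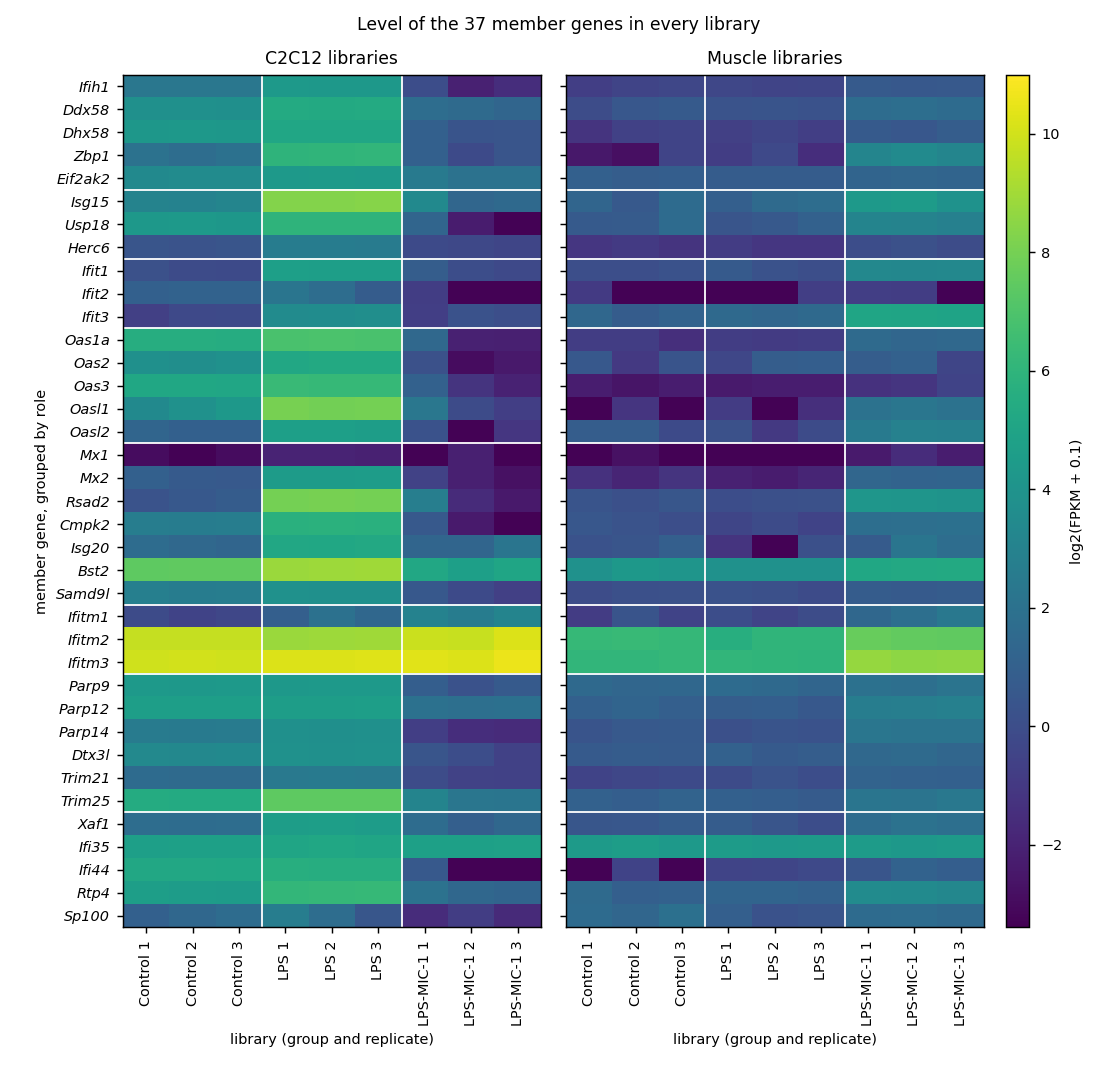
Level of each of the 37 genes, as log2(FPKM + 0.1), in the 9 C2C12 libraries (left) and the 9 muscle libraries (right), with genes grouped by role between the white lines. By group means, LPS is the brightest and LPS-MIC-1 the darkest for 27 genes in C2C12, Ifitm1, Ifitm2 and Ifitm3 are brightest in LPS-MIC-1, and LPS-MIC-1 is the brightest for 35 genes in muscle, although single libraries overlap for some of them, such as Ifit2 and Sp100 in C2C12 and Oas2 in muscle.

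In C2C12, the antiviral genes stood highest in the libraries labelled LPS. Mean levels ran LPS, control, LPS-MIC-1 from high to low for 27 of the 37 genes, and 6 more were highest in LPS with LPS-MIC-1 next. The share of all genes with these orders is not given here. Of the 36 tested genes, 15 were called higher in LPS than in control, whereas 10.9% of all 10877 genes tested were, and none was called lower, as 10% of all genes were. Ifit3, Herc6 and Mx2 are among the 15 and were tested only because LPS was high. At an unadjusted p under 0.05, 25 were higher and 1, Ifitm2, was lower. The share of all genes at that threshold is not given here or for muscle below, so these counts have no background. Every LPS library lay above every control library for 31 of the 36 tested genes, as it did for 39.4% of all tested genes. Neutrophil markers moved with this comparison too: the sum of 6 was 4.66 to 5.84 FPKM in control, 42.4 to 46.3 with LPS and 5.99 to 7.78 with LPS-MIC-1, carried by Mmp9 and S100a8, while S100a9 is listed at 0 in all 9 libraries and Csf3r was lower with LPS. Their part in the result was not tested. The median log2 fold change of the 36 was 1.55, and that of all genes was 0.00. All 9 libraries enter one estimate of the spread, LPS-MIC-1 included. Without LPS-MIC-1 replicate 1, 23 of the genes were called higher in LPS than in control, the same 15 and Cmpk2, Ifih1, Oas1a, Oas2, Oasl2, Parp14, Samd9l and Usp18. Leaving out another library gave 11 to 16, and the calls of Rsad2, Oasl1, Mx2 and Ifitm1 were lost in 7, 7, 6 and 5 of the 9 such fits, with adjusted p-values of at most 0.0033, 0.00522, 0.00154 and 0.00288.

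Between the C2C12 libraries labelled LPS-MIC-1 and LPS, 32 of 36 genes were lower in LPS-MIC-1 and 2 were higher, Ifitm1 and Ifitm2. Among all tested genes, 25.6% were called lower and 24.3% higher in that comparison. The LPS-MIC-1 libraries lay below all LPS libraries for 33 of the 36 genes, against 43.7% of all genes, and the median log2 fold change was -4.27 (-0.05 over all genes). Against control, 19 were called lower in LPS-MIC-1 (22.1% of all genes) and 1, Ifitm1, higher (21.1%). Among the 19, the call of Usp18 was lost in 8 of the 9 fits with 1 library left out (adjusted p at most 0.00398). It was kept only without LPS-MIC-1 replicate 1. All LPS-MIC-1 libraries lay below all control libraries for 27 of the 36 genes, against 42.7% of all genes. Leaving out LPS-MIC-1 replicate 1 raised the number lower than control to 25, through Cmpk2, Ifit2, Isg15, Mx2, Oasl1 and Rsad2, and left 31 lower and 1 higher than LPS. The macrophage markers given above moved with these differences in the same libraries, and in bulk RNA fewer cells of a type and less RNA per cell cannot be told apart.

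The largest LPS difference was that of Rsad2, the gene of viperin, an enzyme that makes a chain-terminating nucleotide. Rsad2 had 1.11, 1.38 and 1.60 FPKM in the control libraries, 259, 266 and 258 in the LPS libraries and 6.70, 0.220 and 0.0894 in the LPS-MIC-1 libraries. Its LPS libraries lay far above all others, 192-fold above the control mean, and its 3 LPS-MIC-1 libraries spread to both sides of control. The log2 fold change was 7.50 (adjusted p = 0.000615, standard error 1.16) in LPS against control and -8.46 (adjusted p = 0.000167, standard error 1.16) in LPS-MIC-1 against LPS. Of the other effectors, Bst2, the membrane tether that holds budding virus, was the most abundant, with 174, 179 and 182 FPKM in the control libraries, 462, 477 and 489 in the LPS libraries and 38.2, 26.5 and 33.6 in the LPS-MIC-1 libraries. Its 3 groups do not overlap, with a log2 fold change of 1.42 (adjusted p = 1.61e-05, standard error 0.116) for LPS against control and -3.87 (adjusted p = 2.06e-08, standard error 0.116) for LPS-MIC-1 against LPS. Isg20, a ribonuclease, had 3.14, 2.61 and 2.31 FPKM in the control libraries, 37.4, 36.2 and 39.6 in the LPS libraries and 2.37, 2.35 and 4.47 in the LPS-MIC-1 libraries. Its LPS-MIC-1 libraries overlapped control, and it was called higher in LPS by 3.77, as was Mx2, a dynamin-like GTPase, by 3.75. Mx2 was tested only because its LPS libraries were high. Cmpk2, a nucleotide kinase that lies beside Rsad2 in the genome, had 6.53, 6.25 and 6.29 FPKM in the control libraries, 53.4, 56.0 and 53.4 in the LPS libraries and 1.45, 0.0933 and 0 in the LPS-MIC-1 libraries. Cmpk2 was 8.53-fold higher in LPS than in control by its means yet missed the threshold, at 3.07 (adjusted p = 0.0135, standard error 0.855), and was past it without LPS-MIC-1 replicate 1, at 3.07 (adjusted p = 1.61e-05, standard error 0.219). Samd9l, a translation inhibitor, went from 6.44 ± 0.393 FPKM in control (mean ± SD, n = 3) to 14.3 ± 0.465 in LPS, with no overlap and an adjusted p of 0.00721. Mx1, which many inbred mouse strains carry in a defective form, had 0.0329, 0 and 0.0322 FPKM in the control libraries, 0.156, 0.156 and 0.136 in the LPS libraries and 0, 0.130 and 0 in the LPS-MIC-1 libraries, too low to be tested.

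Isg15, a ubiquitin-like protein that is joined to other proteins during infection, was the second largest rise in LPS. It had 8.17, 7.80 and 8.65 FPKM in the control libraries, 317, 327 and 333 in the LPS libraries and 10.8, 2.46 and 2.83 in the LPS-MIC-1 libraries. The LPS mean was 39.7-fold the control mean, and of the LPS-MIC-1 libraries, replicate 1 lay above the control libraries and replicates 2 and 3 below them. The log2 fold change of Isg15 was 5.29 (adjusted p = 2.75e-05, standard error 0.478) for LPS against control and -6.23 (adjusted p = 4.19e-06, standard error 0.478) for LPS-MIC-1 against LPS. Usp18, the protease that removes Isg15 from proteins and damps interferon signalling, had 19.7, 19.9 and 18.8 FPKM in the control libraries, 63.3, 62.5 and 63.2 in the LPS libraries and 2.32, 0.106 and 0 in the LPS-MIC-1 libraries. Its groups did not overlap, but the log2 fold change in LPS against control, 1.69 (adjusted p = 0.176, standard error 0.997), was not called, while it was 1.69 (adjusted p = 0.000519, standard error 0.236) without LPS-MIC-1 replicate 1. Herc6, the ligase that attaches Isg15 in mice, went from 1.18 ± 0.0565 to 6.11 ± 0.196 FPKM in LPS and was called higher there and lower in LPS-MIC-1. It was tested only because its LPS libraries were high.

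Among the IFIT genes, whose products bind viral RNA that lacks host cap marks, Ifit1 had 1.02, 0.845 and 0.776 FPKM in the control libraries, 26.5, 25.8 and 25.2 in the LPS libraries and 1.70, 0.921 and 0.744 in the LPS-MIC-1 libraries. Ifit3 had 0.524, 0.763 and 0.782 FPKM in the control libraries, 11.4, 11.9 and 12.9 in the LPS libraries and 0.499, 1.06 and 0.948 in the LPS-MIC-1 libraries. Both rose in LPS, with a log2 fold change of 4.74 (adjusted p = 1.83e-06, standard error 0.260) for Ifit1 and of 3.96 (standard error 0.261) for Ifit3. Ifit3 was tested only because its LPS libraries were high, so its size is a description. The LPS-MIC-1 libraries of both overlapped control, with log2 differences from control of 0.25 (adjusted p = 0.395) and 0.21 (adjusted p = 0.484). Unlike Rsad2 and Isg15, Ifit3 was lowest in LPS-MIC-1 replicate 1. Ifit2 had 1.91, 2.11 and 2.05 FPKM in the control libraries, 4.54, 3.24 and 1.64 in the LPS libraries and 0.480, 0 and 0 in the LPS-MIC-1 libraries. Its LPS libraries spread on both sides of control, and Ifit2 had a single call, a fall from LPS to LPS-MIC-1 that was lost when any library but LPS-MIC-1 replicate 1 was left out (adjusted p at most 0.00309).

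The OAS enzymes sense double-stranded RNA and activate the ribonuclease RNase L, and Oasl1 and Oasl2 are related OAS-like genes. Oasl1 rose most, with 10.6, 14.8 and 19.6 FPKM in the control libraries, 259, 242 and 257 in the LPS libraries and 4.84, 0.816 and 0.498 in the LPS-MIC-1 libraries. Its LPS mean was 16.9-fold the control mean, a log2 fold change of 4.11 (adjusted p = 0.000998, standard error 0.692), and its highest control library was 19.6 FPKM against a lowest of 10.6. Oas1a had 46.8, 48.3 and 44.8 FPKM in the control libraries, 118, 119.8 and 118 in the LPS libraries and 2.70, 0.133 and 0.126 in the LPS-MIC-1 libraries. The 3 groups of Oas1a are far apart, and the difference of LPS from control, 1.35 (adjusted p = 0.21, standard error 0.862), missed the threshold in the shared spread, yet reached 1.35 (adjusted p = 5.83e-07, standard error 0.0459) without LPS-MIC-1 replicate 1. Oas3 had 35.5, 35.8 and 34.5 FPKM in the control libraries, 80.5, 76.1 and 76.6 in the LPS libraries and 1.99, 0.324 and 0.142 in the LPS-MIC-1 libraries. Oas2, Oas3 and Oasl2 followed the order of Oas1a, with LPS means 2.85, 2.21 and 12.7 times the control means, and were not called higher in LPS either. Without LPS-MIC-1 replicate 1, Oas2 and Oasl2 were called and Oas3 was not. In LPS-MIC-1, all 5 fell against LPS, least for Oasl2, which fell by 6.08 on the log2 scale, and most for Oas1a, which fell by 7.82.

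The sensors of foreign nucleic acid all had LPS libraries above the control libraries. Zbp1, a sensor of left-handed nucleic acid that can start cell death, had 3.98, 3.23 and 3.76 FPKM in the control libraries, 63.6, 65.1 and 67.6 in the LPS libraries and 1.89, 0.794 and 1.20 in the LPS-MIC-1 libraries, and a log2 fold change of 4.13 (adjusted p = 3.3e-06, standard error 0.255) for LPS against control. Ddx58, which encodes the RNA sensor RIG-I, had 14.1, 14.2 and 13.3 FPKM in the control libraries, 42.9, 40.5 and 42.7 in the LPS libraries and 3.27, 2.84 and 2.37 in the LPS-MIC-1 libraries, and a log2 fold change of 1.59 (adjusted p = 5.57e-06, standard error 0.108). These 2 sensors were called higher in LPS. Ifih1 (MDA5), Dhx58 (LGP2) and Eif2ak2 (PKR, a kinase that halts translation) had LPS means 4.10, 1.83 and 1.82 times control without passing the threshold. All 5 sensors fell in LPS-MIC-1 against LPS and against control, the latter call of Zbp1 being lost in 7 of the 9 fits with 1 library left out (adjusted p at most 0.00359), and Eif2ak2 kept the largest share of its LPS level, 26.3, 18.9 and 19.3% in LPS-MIC-1 replicates 1 to 3.

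The IFITM proteins, which stop enveloped viruses from fusing with endosomes, went another way, and Ifitm3 was the most abundant of the 37 genes in every C2C12 library. Ifitm3 had 993, 1031 and 1014 FPKM in the control libraries, 1228, 1203 and 1239 in the LPS libraries and 1307, 1229 and 1525 in the LPS-MIC-1 libraries. Its level differed little among the groups, with 0.27 for LPS against control (adjusted p = 0.0188) and 0.14 for LPS-MIC-1 against LPS (adjusted p = 0.143) on the log2 scale, and quantile normalization turned both of these signs. Ifitm2 had 836, 837 and 848 FPKM in the control libraries, 459.5, 466 and 486 in the LPS libraries and 908, 883 and 1188 in the LPS-MIC-1 libraries. All LPS libraries were below all control libraries, with a log2 fold change of -0.84 (adjusted p = 0.000209, standard error 0.107), short of the fold threshold, and LPS-MIC-1 was higher than LPS by 1.06 (adjusted p = 2.35e-05, standard error 0.107). Without LPS-MIC-1 replicate 3, that second difference was 0.93 (adjusted p = 2.49e-07, standard error 0.0326) and no longer called. Ifitm1 had 0.829, 0.614 and 0.706 FPKM in the control libraries, 1.82, 3.84 and 2.60 in the LPS libraries and 7.80, 6.20 and 8.37 in the LPS-MIC-1 libraries. Ifitm1 was the one gene called higher in both steps, by 1.75 (adjusted p = 0.000498, standard error 0.261) in LPS against control and by 1.46 (adjusted p = 0.000862, standard error 0.261) in LPS-MIC-1 against LPS, but the second call did not hold when any of 8 of the 9 libraries was left out, the exception being LPS replicate 2 (adjusted p at most 0.00388).

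Of the PARP, Dtx3l and TRIM genes, whose products modify proteins with ADP-ribose or ubiquitin, Trim25, the ligase that activates RIG-I, rose most. Trim25 had 43.3, 42.4 and 42.6 FPKM in the control libraries, 172, 170.4 and 172 in the LPS libraries and 8.40, 4.58 and 4.42 in the LPS-MIC-1 libraries, with a log2 fold change of 2.00 (adjusted p = 7.34e-05, standard error 0.214) for LPS against control. Parp12 had 25.0, 25.7 and 25.5 FPKM in the control libraries, 24.0, 24.5 and 25.3 in the LPS libraries and 3.83, 3.50 and 3.66 in the LPS-MIC-1 libraries. Its LPS and control libraries overlapped (-0.05, adjusted p = 0.501), as did those of Parp9 (0.02, adjusted p = 0.937), so these 2 genes had no called LPS difference, while both fell in LPS-MIC-1, by 2.71 and 3.72 on the log2 scale. Dtx3l, the partner of Parp9, had an LPS mean 1.42 times that of control with no overlap, at an adjusted p of 0.078. Parp14 and Trim21, at 2.42 and 1.82 times control in LPS, were not called there either, and all 6 of these genes were called lower in LPS-MIC-1 than in both other groups.

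The remaining 5 genes differed among themselves. Rtp4, a chaperone of membrane receptors, had 25.0, 23.7 and 22.3 FPKM in the control libraries, 71.3, 74.3 and 76.8 in the LPS libraries and 3.96, 2.52 and 2.24 in the LPS-MIC-1 libraries, and it was called higher in LPS by 1.64 (adjusted p = 8.99e-05, standard error 0.182). Xaf1, a promoter of cell death, rose by 2.91 (adjusted p = 1.84e-06) and in LPS-MIC-1 lay just under control. Ifi44 had 37.5, 38.2 and 36.7 FPKM in the control libraries, 48.6, 46.7 and 46.9 in the LPS libraries and 1.43, 0 and 0 in the LPS-MIC-1 libraries. Its control level was close to its LPS level, the LPS mean being 1.26 times control, and it is listed at 0 in LPS-MIC-1 replicates 2 and 3. Ifi35, which binds the innate regulator Nmi, had 26.2, 27.1 and 27.8 FPKM in the control libraries, 33.7, 35.9 and 33.2 in the LPS libraries and 27.1, 27.6 and 28.3 in the LPS-MIC-1 libraries. Its LPS libraries lay above all others by 0.34 (adjusted p = 0.000317, standard error 0.0473), and its LPS-MIC-1 libraries overlapped control, and the log2 difference between LPS-MIC-1 and LPS was -0.31, under the fold threshold. Sp100, a component of nuclear bodies, had 1.90, 2.58 and 3.09 FPKM in the control libraries, 6.29, 3.21 and 1.25 in the LPS libraries and 0.240, 0.478 and 0.206 in the LPS-MIC-1 libraries. The spread of Sp100 within LPS was wider than the distance between LPS and control, and it was called lower only in LPS-MIC-1 against LPS, a call lost when any library but LPS replicate 3 was left out (adjusted p at most 0.00436).

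**Figure D2:**
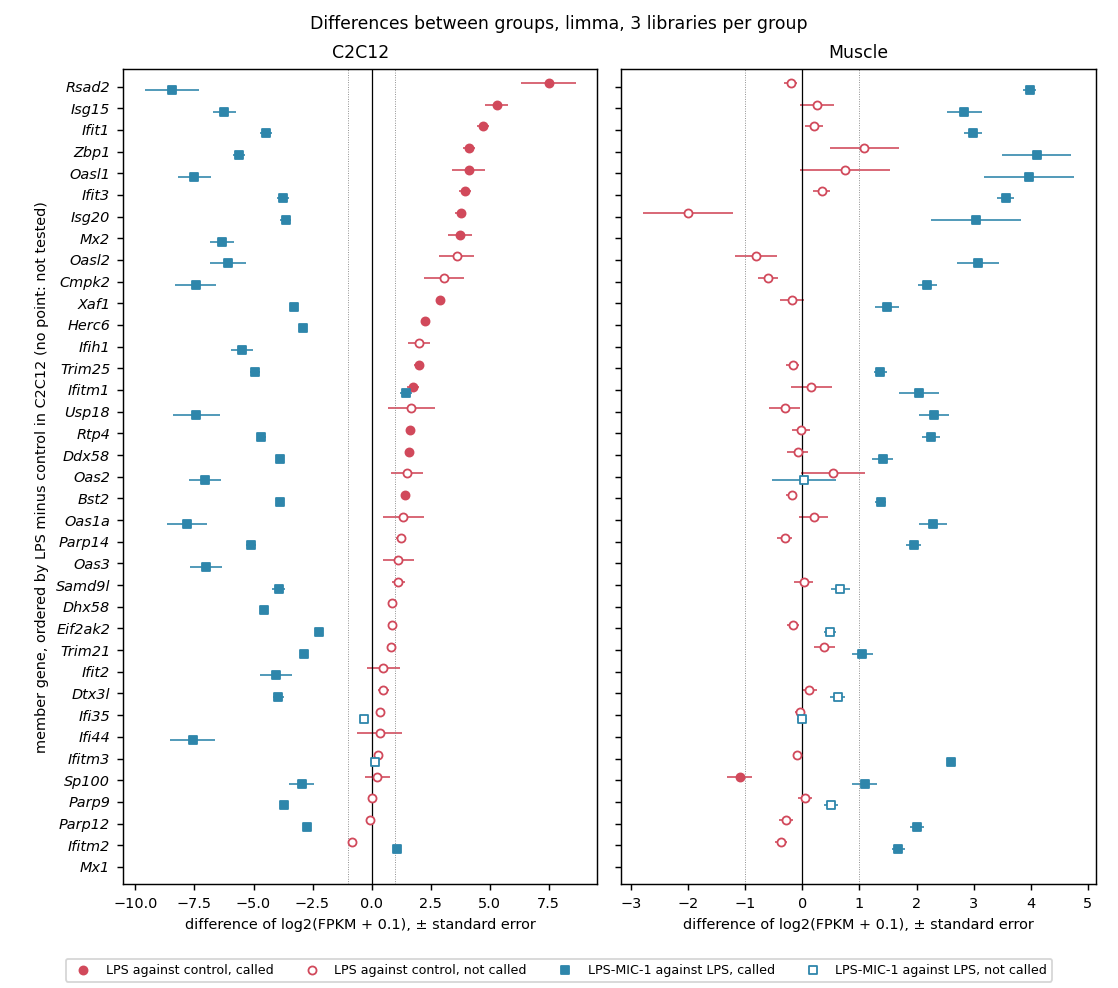
Difference of LPS from control (circles) and of LPS-MIC-1 from LPS (squares) on the log2(FPKM + 0.1) scale for each gene, with its standard error, in C2C12 (left) and muscle (right); filled symbols were called, the dotted lines mark a difference of 1, and 3 libraries stand behind each group. Squares lie left of 0 for 33 of 36 genes in C2C12 and right of 0 for all tested genes but Ifi35 in muscle, whose axis has a smaller range.

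A gap between C2C12 LPS-MIC-1 replicate 1 and its replicates was seen in the lowest genes too. For 11 of the 37 genes with replicates 2 and 3 both under 1% of the LPS mean, replicate 1 held a median of 2.58% of it, from 1.92% for Oasl1 to 15.3% for Ifit2. The corresponding share was 2.16 to 3.50% for 10 of 11 macrophage markers, with a median of 2.85%. Rsad2, for example, had 2.57, 0.0841 and 0.0342% of its LPS mean in replicates 1 to 3, and Lyz2 had 2.65, 0.102 and 0.0335%. Parp12 and Ifi35 showed no such gap. Parp12 kept 15.6, 14.2 and 14.9% of its LPS mean, and Ifi35 kept 79.0, 80.5 and 82.7%. The part of this trace in the results was not tested beyond leaving the library out.

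**Figure D3:**
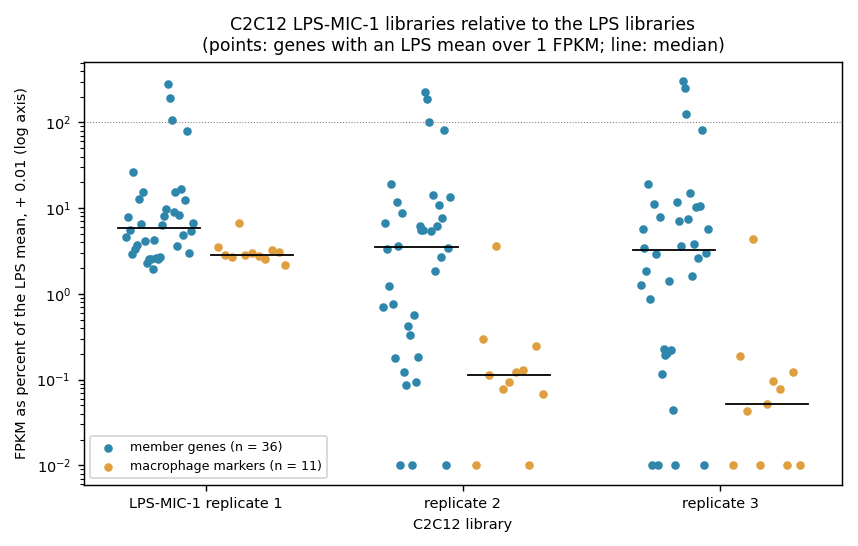
Level in each C2C12 LPS-MIC-1 library as a percent of the mean LPS level, plus 0.01 for a log axis, for the 36 member genes and 11 macrophage markers whose LPS mean is over 1 FPKM, with a line at each median. Macrophage markers sit between 2.16 and 6.66% in replicate 1, and 10 of the 11 lie under 1% in replicates 2 and 3, while member genes range from 0 to above 100% there.

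In muscle the order was different: most of the 37 genes were called neither higher nor lower in LPS and stood highest in LPS-MIC-1. Mean levels were highest in LPS-MIC-1 for 35 of the 37 genes, all but Ifi35 and Sp100, and the share of all genes with this order is not given here. No gene was called higher in LPS than in control, and 1 of 29, Sp100, was called lower, while 0.654% and 0.591% of the 9475 genes tested were called higher and lower. At an unadjusted p under 0.05, 0 were higher and 6 lower in LPS, again without a share over all genes. LPS libraries lay above all control libraries for 1 of 29 genes and below for 7, against 18.8% and 17.7% of all genes, and the median log2 fold change was -0.08 (0.01 over all genes).

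Against LPS, 23 of the 29 genes were called higher in LPS-MIC-1, and none was called lower, also at an unadjusted p under 0.05. Over all tested genes, 9.67% were called higher and 5.44% lower. The LPS-MIC-1 libraries lay above all LPS libraries for 27 of the 29 genes, whereas 32.5% of all genes showed this, and the median log2 fold change was 2.00 (-0.01 over all genes). Against control, 21 genes were called higher (9.33% of all genes) and none lower (6.12%, and none at an unadjusted p under 0.05), and 25 of 29 had all LPS-MIC-1 libraries above all control libraries (33.4% of all genes). Leaving aside the 6 genes with control and LPS means of at most 1 FPKM, 18 of 23 were called higher than LPS, against 8.13% of the 9232 genes with a control or LPS mean over 1. Higher than control were 16 of 23 (7.83% of those 9232). Isg20 and Cmpk2 are still among the 23, although they too passed only with their LPS-MIC-1 libraries, so these counts are not free of that selection. Without any filter on level, 29 of all 37 genes were called higher than LPS and 28 higher than control. The share of all genes called in that fit is not given here. The 8 genes left out of the main test were low, with at most 2.48 FPKM in any library, and 7 of them, all but Ifit2, had LPS-MIC-1 libraries above all LPS libraries.

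Markers of other cell types also moved with these groups. The summed level of 6 neutrophil markers was 1.83 to 2.88 FPKM for control libraries, 1.68 to 2.06 for LPS and 9.64 to 16.3 for LPS-MIC-1, and of the 3 tested, S100a8 was called higher in LPS-MIC-1 than in LPS, at 7.25, 7.47 and 7.41 FPKM, while Csf3r, a defining receptor, had at most 0.355 FPKM. Endothelial markers summed to 81.9 to 84.1, 51.2 to 52.3 and 67.6 to 79.6 FPKM in the same order of groups, with 1 of 5 tested, Esam, called higher in LPS-MIC-1 than in LPS, while Kdr went the other way, with 5.47, 4.36 and 5.38 FPKM in LPS and 2.74, 2.69 and 2.35 in LPS-MIC-1. The intestinal epithelium markers summed to 5.68 to 6.15 FPKM with LPS alone and 17.7 to 19.8 after LPS-MIC-1, nearly all of it Lgals4. Fibre markers summed to 200203 to 204194 FPKM with LPS alone and 159351 to 173060 after LPS-MIC-1, and Myod1 had 33.9, 34.6 and 33.3 FPKM in LPS and 4.69, 5.27 and 4.21 in LPS-MIC-1. Of the 11 macrophage markers, 7 could be tested and Cd14, Mpeg1 and Cd52 (3) were called higher in LPS-MIC-1 than in LPS, while Emr1, the defining macrophage receptor, had at most 0.800 FPKM. Cd14 and Mpeg1, like S100a8, had control and LPS means under 1 FPKM. These markers passed the filter only through LPS-MIC-1, so a difference was a condition of their being tested. The macrophage markers were most raised in LPS-MIC-1 replicate 3, where Lyz2 had 5.27, 3.93 and 78.3 FPKM in replicates 1 to 3, whereas the summed level of the 37 antiviral genes was 857, 812 and 800.4 FPKM in these replicates. Without replicate 3, 22 genes were called higher than LPS and 20 higher than control, with Oas1a the one lost from each. The part of these other cell types in the differences was not tested beyond leaving that library out.

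In muscle, Ifitm2 and Ifitm3 made up most of the summed level of the 37 genes in every library. Ifitm3 had 68.5, 67.3 and 72.8 FPKM in the control libraries, 66.4, 65.5 and 62.6 in the LPS libraries and 419, 378 and 386 in the LPS-MIC-1 libraries. Ifitm3 was 6.08-fold higher in LPS-MIC-1 than in LPS, with the smallest standard error of the 29 genes, 2.60 (adjusted p = 3.12e-09, standard error 0.0491) on the log2 scale. Ifitm2 had 75.3, 79.7 and 74.2 FPKM in the control libraries, 48.7, 65.8 and 64.3 in the LPS libraries and 202, 188 and 179 in the LPS-MIC-1 libraries. Both had all LPS libraries under all control libraries, with log2 differences of -0.10 (adjusted p = 0.217) and -0.37 (adjusted p = 0.0536), neither of them called. Ifitm2 rose in LPS-MIC-1 against LPS by 1.68 (adjusted p = 3.65e-06, standard error 0.108). Ifitm1, at 2.56, 3.56 and 4.96 FPKM in LPS-MIC-1, was called higher too, by 2.05, but passed the filter only through those libraries.

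Among sensors, Zbp1 had 0.0817, 0.0406 and 0.622 FPKM in the control libraries, 0.485, 0.762 and 0.245 in the LPS libraries and 8.73, 11.2 and 8.82 in the LPS-MIC-1 libraries. The difference of Zbp1 in LPS-MIC-1 on the log2 scale was 4.11 (standard error 0.604) against LPS and 5.19 (standard error 0.604) against control. Zbp1 started from under 1 FPKM and was tested only because its LPS-MIC-1 libraries were high, so its size is a description, and its difference of 1.08 in LPS against control (adjusted p = 0.279) rested on values that overlapped. Eif2ak2 had 1.94, 1.72 and 1.78 FPKM in the control libraries, 1.60, 1.61 and 1.63 in the LPS libraries and 2.26, 2.43 and 2.23 in the LPS-MIC-1 libraries. Its 3 groups do not overlap, LPS being lowest, but all differences were small and LPS-MIC-1 stood 0.49 (adjusted p = 0.00391, standard error 0.104) above LPS, under the fold threshold. Ddx58 was called, its mean ± SD (n = 3) being 1.13 ± 0.0602 FPKM for LPS against 3.16 ± 0.180 for LPS-MIC-1. Ifih1 and Dhx58 were too low for the test, and both had LPS-MIC-1 means over 2 times those of LPS (2.17 and 2.69 times).

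In the IFIT family, Ifit3 had 2.60, 1.61 and 2.08 FPKM in the control libraries, 2.74, 2.43 and 2.72 in the LPS libraries and 33.0, 32.1 and 31.5 in the LPS-MIC-1 libraries, and Ifit1 had 0.929, 0.954 and 1.09 FPKM in the control libraries, 1.51, 1.06 and 0.961 in the LPS libraries and 9.88, 9.64 and 10.1 in the LPS-MIC-1 libraries. The LPS-MIC-1 replicates of these genes were tighter than those of most others. Against LPS, Ifit3 rose by 3.57 (adjusted p = 2.64e-07, standard error 0.147) and Ifit1 by 2.99 (adjusted p = 1.18e-06, standard error 0.159). Ifit2 had 0.410, 0 and 0 FPKM in the control libraries, 0, 0 and 0.508 in the LPS libraries and 0.499, 0.482 and 0 in the LPS-MIC-1 libraries, and its groups overlapped throughout. Of the ISG15 system, Isg15 had 2.35, 1.42 and 2.99 FPKM in the control libraries, 1.84, 2.92 and 3.26 in the LPS libraries and 20.04, 23.0 and 15.5 in the LPS-MIC-1 libraries. Usp18 had 1.53, 1.56 and 2.97 FPKM in the control libraries, 1.21, 1.45 and 2.04 in the LPS libraries and 8.37, 8.24 and 7.32 in the LPS-MIC-1 libraries. Both rose in LPS-MIC-1 against LPS, by 2.84 (adjusted p = 7.25e-05, standard error 0.299) for Isg15 and 2.30 (adjusted p = 0.00013, standard error 0.268) for Usp18, and neither differed between LPS and control beyond the spread of the libraries (0.26 and -0.31, adjusted p = 0.614 and 0.493). Herc6, with at most 1.03 FPKM in any library, was not tested.

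Among OAS genes, Oasl1 had 0, 0.340 and 0 FPKM in the control libraries, 0.459, 0 and 0.266 in the LPS libraries and 3.996, 4.64 and 3.99 in the LPS-MIC-1 libraries. It is listed at 0 in 3 libraries, so its difference of 3.97 (standard error 0.787) for LPS-MIC-1 against LPS depends on the added 0.1. The groups stand well apart, but Oasl1, like Zbp1, was tested only because its LPS-MIC-1 libraries were high, so its size is a description. Oasl2 had 1.67, 1.73 and 0.777 FPKM in the control libraries, 1.03, 0.403 and 0.823 in the LPS libraries and 5.63, 7.42 and 7.20 in the LPS-MIC-1 libraries, and rose by 3.08 (adjusted p = 0.000154, standard error 0.368). Oas1a, at 0.464 ± 0.0232 FPKM for LPS against 2.66 ± 0.196 for LPS-MIC-1, was also called, and it too passed the filter only through LPS-MIC-1. Oas2 was the exception, with 1.35, 0.396 and 1.14 FPKM in the control libraries, 0.703, 1.73 and 1.77 in the LPS libraries and 1.72, 2.02 and 0.663 in the LPS-MIC-1 libraries. Its libraries spread within each group by more than the groups differed, and LPS-MIC-1 stood at 0.03 (adjusted p = 0.967, standard error 0.563) against LPS. Oas3 had at most 0.598 FPKM in any library.

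Of the effectors, Rsad2 had 1.18, 0.995 and 1.27 FPKM in the control libraries, 0.905, 0.991 and 1.04 in the LPS libraries and 17.8, 16.9 and 16.2 in the LPS-MIC-1 libraries. Its rise in LPS-MIC-1 against LPS was 3.98 (adjusted p = 2.33e-08, standard error 0.109), second in size to Zbp1, with LPS and control overlapping. Bst2 had 14.7, 19.5 and 16.8 FPKM in the control libraries, 14.7, 14.9 and 14.8 in the LPS libraries and 36.03, 38.5 and 41.2 in the LPS-MIC-1 libraries, and rose by 1.37 (adjusted p = 6.09e-06, standard error 0.0961). Isg20 had 1.07, 1.22 and 1.84 FPKM in the control libraries, 0.327, 0 and 0.974 in the LPS libraries and 1.60, 4.52 and 3.22 in the LPS-MIC-1 libraries. Isg20 was called higher in LPS-MIC-1 than in LPS, by 3.05 (standard error 0.788), but not than in control, and its LPS libraries were below all control libraries. Cmpk2 likewise had LPS libraries under control, at 0.701 ± 0.119 and 1.12 ± 0.191 FPKM (adjusted p = 0.0511), and rose to 3.53 ± 0.118 in LPS-MIC-1. Isg20 and Cmpk2 passed the filter only with their LPS-MIC-1 libraries, so the sizes of their rises are a description. Samd9l was under the fold threshold in both LPS-MIC-1 comparisons. Mx2 had 0.295, 0.163 and 0.330 FPKM in the control libraries, 0.132, 0.0996 and 0.164 in the LPS libraries and 2.48, 2.18 and 2.30 in the LPS-MIC-1 libraries, a mean 17.6 times that of LPS, and Mx1 is listed at 0 in all LPS libraries and had at most 0.230 FPKM.

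Of the protein-modifying genes, Parp12 had 1.90, 2.24 and 1.86 FPKM in the control libraries, 1.68, 1.78 and 1.38 in the LPS libraries and 6.31, 6.63 and 7.32 in the LPS-MIC-1 libraries. This was the largest rise of its role group against LPS, 2.00 (adjusted p = 2.82e-06, standard error 0.123), with Parp14 next at 1.95. Parp9 had 2.80, 2.47 and 2.58 FPKM in the control libraries, 3.00, 2.79 and 2.35 in the LPS libraries and 3.76, 3.57 and 4.31 in the LPS-MIC-1 libraries. Its LPS-MIC-1 libraries lay above all others, over LPS by 0.50 (adjusted p = 0.00667, standard error 0.118), which, like the 0.62 of its partner Dtx3l, was under the fold threshold. Trim25 and Trim21 were called higher by 1.37 and 1.05, the latter being under the fold threshold without LPS replicate 1. Trim21 passed the filter only through LPS-MIC-1. Of the remaining genes, Rtp4 had 2.92, 1.85 and 2.03 FPKM in the control libraries, 2.25, 2.26 and 2.02 in the LPS libraries and 11.6, 11.2 and 9.60 in the LPS-MIC-1 libraries, and rose by 2.25 (adjusted p = 7.42e-06, standard error 0.163). Xaf1 rose by 1.48 (adjusted p = 0.000377). Ifi44, not tested, had 0, 0.601 and 0 FPKM in the control libraries, 0.638, 0.667 and 0.743 in the LPS libraries and 1.22, 2.11 and 1.76 in the LPS-MIC-1 libraries, with LPS-MIC-1 above the rest. Ifi35 had 21.9, 24.8 and 19.9 FPKM in the control libraries, 22.3, 20.1 and 21.9 in the LPS libraries and 22.6, 19.5 and 21.7 in the LPS-MIC-1 libraries. All its groups overlapped, at -0.01 for LPS-MIC-1 against LPS (adjusted p = 0.915), although Ifi35 was the third most abundant of the 37 genes in control muscle. Sp100 had 2.99, 2.44 and 3.69 FPKM in the control libraries, 1.88, 1.06 and 1.22 in the LPS libraries and 2.97, 3.19 and 2.80 in the LPS-MIC-1 libraries. It fell by 1.10 in LPS against control (adjusted p = 0.0121, standard error 0.220), and the LPS-MIC-1 libraries overlapped control (-0.01, adjusted p = 0.976). The LPS call of Sp100 was lost without control replicate 3 or without LPS replicate 2, where its size dropped under the fold threshold, to -0.94 at the least, and the second of these also ended its call in LPS-MIC-1 against LPS.

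**Figure D4:**
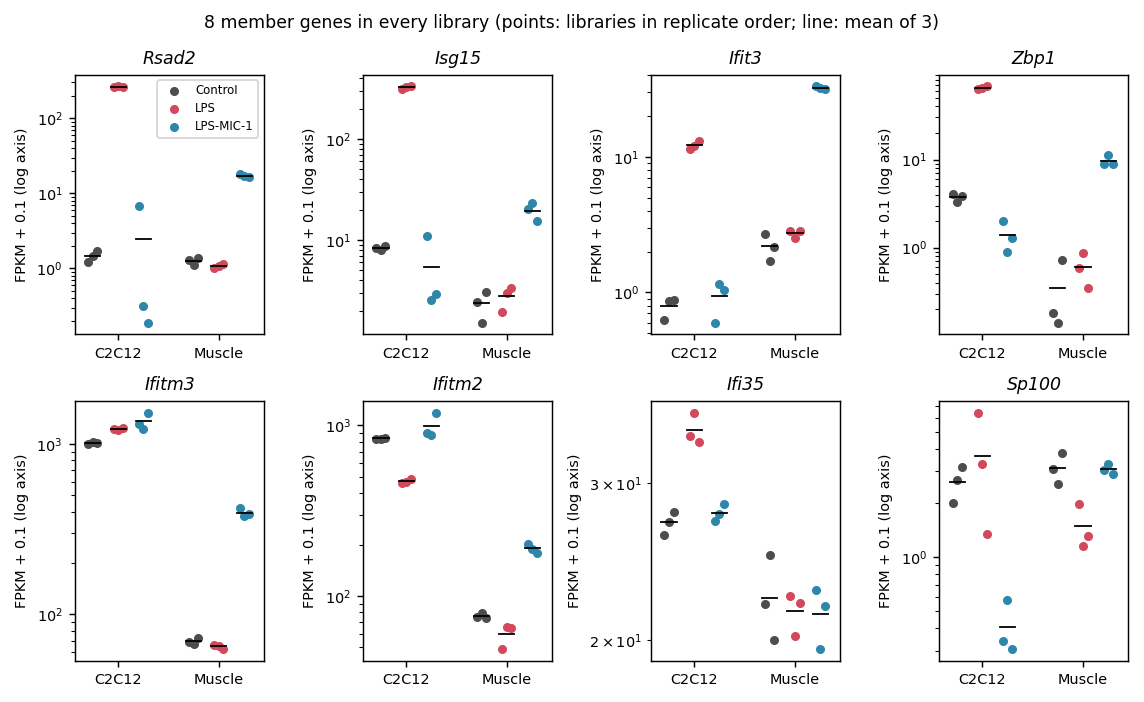
FPKM + 0.1 on a log axis for 8 genes in each C2C12 and muscle library, with replicates as points in replicate order and the mean of 3 as a line. Rsad2, Isg15, Ifit3 and Zbp1 are highest in LPS in C2C12 and in LPS-MIC-1 in muscle, Ifi35 is at 19.5 to 35.9 FPKM in all 18 libraries, and Sp100 is lowest in LPS in muscle.

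The groups with the highest levels were different in the experiments, LPS in C2C12 and LPS-MIC-1 in muscle, but the size order of the genes was alike. The same 6 genes led the LPS difference from control in C2C12 and the LPS-MIC-1 difference from control in muscle: Rsad2, Isg15, Ifit1, Zbp1, Oasl1 and Ifit3. Their order was Rsad2, Isg15, Ifit1, Zbp1, Oasl1, Ifit3 in C2C12, with 7.50, 5.29, 4.74, 4.13, 4.11, 3.96 on the log2 scale, and Zbp1, Oasl1, Ifit3, Rsad2, Ifit1, Isg15 in muscle, with 5.19, 4.71, 3.90, 3.77, 3.20, 3.10. Over the 29 genes tested in both, Pearson's r was 0.69 and Spearman's rho 0.63, a description across genes that share their libraries within each experiment. Of the 6 leading genes, Zbp1 and Oasl1 were tested in muscle only because LPS-MIC-1 was high, and Ifit3 in C2C12 only because LPS was high. Over the 23 genes with a control or LPS mean over 1 FPKM there, the same 4 led in both, Rsad2, Isg15, Ifit1 and Ifit3, and r was 0.71 and rho 0.58. Most neighbours in these orders could not be separated: the difference between adjacent genes exceeded 2 combined standard errors in 2 of 35 pairs in C2C12 and in 1 of 28 in muscle. At the low end, Ifi35, Sp100 and Parp9 were among the 6 smallest in both. The largest departures were Ifitm3, rank 25 in C2C12 and 7 in muscle, Parp12, 28 and 13, and Isg20, 7 and 22. The tables of the experiments were normalized separately, and levels were not tested across them.

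**Figure D5:**
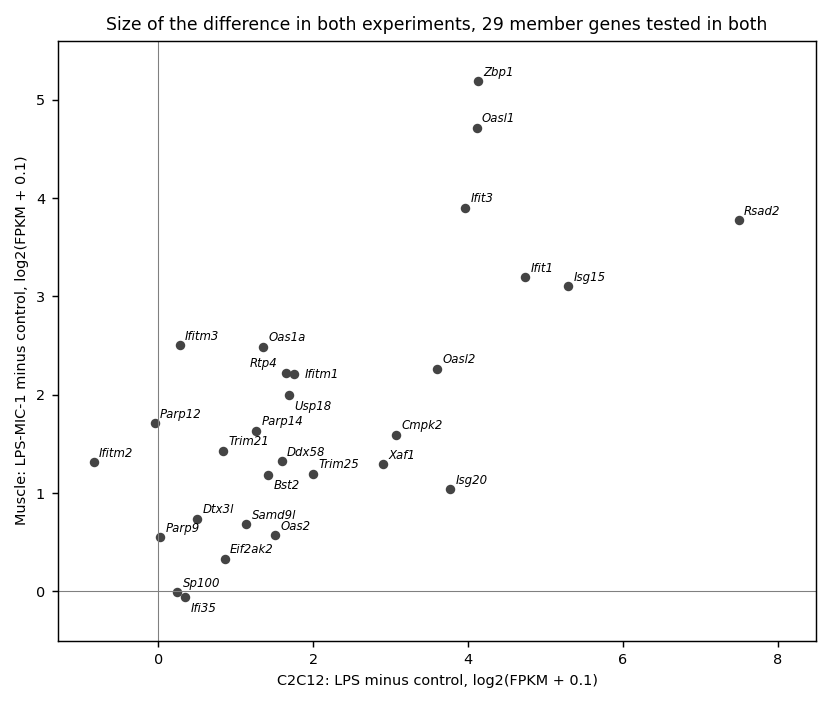
LPS minus control in C2C12 (horizontal axis) against LPS-MIC-1 minus control in muscle (vertical axis), both on the log2(FPKM + 0.1) scale, for the 29 genes tested in both experiments. Rsad2, Isg15, Ifit1, Zbp1, Oasl1 and Ifit3 lie at the upper right, and Ifi35 and Sp100 lie near 0 on both axes.

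The genes that carry the interferon signal were taken as a list of 30, by their roles. Of 7 interferon genes (the ligands), Ifnb1 had 0, 0 and 0.0844 FPKM in the control libraries, 0.305, 0.414 and 0.413 in the LPS libraries and 0, 0.0962 and 0 in the LPS-MIC-1 libraries in C2C12, and every other value of the 7 was at most 0.210 FPKM in both experiments. No ligand could be tested. Of the 22 list genes tested in C2C12, Jak2, Ticam1 and Socs3 (3 genes) were called higher with LPS and 0 were called lower, close to the 10.9% of all genes called higher. Ticam1, the adaptor between Tlr4 and interferon, had 14.9, 14.4 and 14.6 FPKM in the control libraries, 81.2, 78.3 and 74.7 in the LPS libraries and 9.10, 7.78 and 7.31 in the LPS-MIC-1 libraries. In LPS-MIC-1 against LPS, 13 were called lower, among them all 5 kinases and 2 of 4 receptor chains, and 2 were called higher (25.6% and 24.3% of all genes). Those called lower included Irf7, the factor that amplifies interferon production, with 32.8, 36.9 and 37.7 FPKM in the control libraries, 274, 282 and 277 in the LPS libraries and 7.12, 0.568 and 0 in the LPS-MIC-1 libraries. Irf9 had 27.3, 22.3 and 23.0 FPKM in the control libraries, 51.3, 49.8 and 51.1 in the LPS libraries and 5.34, 4.58 and 2.84 in the LPS-MIC-1 libraries. Stat2, its partner, fell by 5.20 on the log2 scale (adjusted p = 2.2e-05). Irf3 and the inhibitor Socs1 were higher in LPS-MIC-1, by 1.71 and 1.87.

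In muscle, 19 of the 30 pathway genes were tested. None was called higher in LPS than in control (0.654% of all genes) and 2 were lower (0.591%), both inhibitors of cytokine signalling. Socs1 had 49.4, 49.5 and 47.6 FPKM in the control libraries, 0.792, 1.38 and 0.429 in the LPS libraries and 4.29, 4.59 and 3.46 in the LPS-MIC-1 libraries. Socs3 had 6.10, 4.63 and 5.78 FPKM in the control libraries, 0.725, 1.08 and 0.288 in the LPS libraries and 4.92, 6.11 and 6.49 in the LPS-MIC-1 libraries. Both were lowest in LPS, and the LPS-MIC-1 libraries stood between LPS and control for Socs1 and overlapped control for Socs3. Against LPS, 8 genes were called higher in LPS-MIC-1 and none lower: Tbk1, Stat2, Irf9, Irf1, Irf7, Ticam1, Socs1 and Socs3. Among all genes, 9.67% were called higher and 5.44% lower. Irf7 had 2.53, 2.64 and 2.76 FPKM in the control libraries, 1.76, 2.51 and 2.79 in the LPS libraries and 25.0, 26.1 and 28.4 in the LPS-MIC-1 libraries, a log2 fold change of 3.46 against LPS (adjusted p = 3.63e-07). Stat2, Irf9 and Irf1 rose by 1.89, 1.87 and 1.92.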

How the data were processed

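RNA sequencing levels were taken from 2 tables of FPKM that the authors deposited, 1 for C2C12 and 1 for muscle, each normalized by the authors to transcript length and library depth. The submitters' processing notes name kallisto, DESeq2 and the genome build mm9. Kallisto assigns reads to transcripts and can divide reads among near-identical copies of a gene. The authors also deposited tables of DESeq2 fold changes and p-values, which were not used. In the muscle table, 9 columns of per-sample values match no sample label and were not used. Read totals are not given in the sources used here, so no counting interval could be made.

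The 9 libraries of each experiment were fitted together with limma 3.58.1 in R 4.3.3, on log2(FPKM + 0.1), with a group mean per group, a trended variance prior and Benjamini-Hochberg adjustment over all genes with a mean over 1 FPKM. A test on counts could not be the main one because the values are FPKM. Checked on simulated data in the LPS against control comparison, with changes of 2 on the log2 scale, the fit recovered 80.6% of 175 changed genes among 9632 in C2C12 and 91.1% of 191 among 9070 in muscle, with 0 wrong calls. The simulation gave each gene the same spread in all groups. It does not cover genes such as Rsad2 in C2C12, whose LPS-MIC-1 libraries spread far more than the others on the log2 scale. Tables and figures were made with Python 3.11.15, pandas 2.3.3, scipy 1.17.1 and matplotlib 3.10.9. Values of every library are given for the pair of members in each role group with the highest mean FPKM, the 3 with the largest rise and the 3 with the largest fall in each comparison, and those whose order over the groups departs from most, and a few others were added after their values were seen. The members and lists were chosen with earlier results of these data known.

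The alternatives were other pseudocounts (0.01 and 1), no filter or a filter at 5 FPKM, median-ratio and quantile scaling, the 6 compared libraries alone, a variance prior without trend, a replicate block and leaving out each library. The labels give a MIC-1 dose in cells of 10 μM and saline as vehicle. The paper's methods give a range of doses that includes 10 μM, with ethanol as vehicle. Its Results, however, name 1 μM MIC-1 for the sequenced cells, so the dose is in conflict. For the muscle control, the paper's figure legend names 10% DMSO by mouth in place of saline. No 2 libraries held identical values. For 1 gene of the pathway list, single values are not reported here.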

Additional observations from a re-analysis of the deposited data

Results flagged for a closer look

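The direction of a comparison was opposite in the experiments for many of the genes. Between LPS-MIC-1 and LPS, 31 genes had every LPS-MIC-1 library below every LPS library in C2C12 and above every LPS library in muscle. Between LPS-MIC-1 and control, 24 genes showed the same opposite pattern. Between LPS and control, 4 genes, Isg20, Cmpk2, Ifitm3 and Eif2ak2, had every LPS library above every control library in C2C12 and below every control library in muscle. Of the 8422 genes tested in both experiments, 16.6%, 16.3% and 7.2% showed these patterns, against 24, 18 and 4 of the 29 antiviral genes tested in both. The tables were normalized separately, and the difference between experiments was not tested. In C2C12, the macrophage and myoblast markers changed between the same libraries, so these groups differ in more than treatment.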

How the results depend on the processing

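Against 15 genes called higher in LPS than in control in C2C12, 23 were called with only the 6 libraries compared, and leaving out 1 library gave 11 to 23. Quantile normalization called 1 gene, Ifitm2, lower there, against 0. Of the 2 genes higher in LPS-MIC-1 than in LPS in C2C12, 1 was called with a pseudocount of 0.01, with no filter, with a filter at 5 FPKM, with quantile normalization, with only the 6 libraries compared and with the replicate block, and 0 to 2 without 1 library. The 1 gene higher in LPS-MIC-1 than in control, Ifitm1, fell to 0 with the filter at 5 FPKM, which left it untested. In muscle, the 1 gene lower in LPS than in control fell to 0 with a pseudocount of 1 or the filter at 5 FPKM, and was 0 to 2 without 1 library, while those called higher were 0 to 1. That filter tested 8 genes in muscle and called 7 higher in LPS-MIC-1 than in LPS and 7 higher than in control, against 23 and 21. The other counts stayed within 1.5 times under every alternative run.

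Quantile normalization turned the sign of 6 differences named in the text: Ifitm3 (-0.066 in LPS against control and -0.12 in LPS-MIC-1 against LPS), Parp9 (-0.0040 in LPS against control), Ifit1 and Ifit3 (-0.061 and -0.61 in LPS-MIC-1 against control) in C2C12, and Oas2 (-0.13 in LPS-MIC-1 against LPS) in muscle. In muscle it moved the median of all genes to -0.12 in LPS-MIC-1 against LPS and the share of higher calls from 64.0% to 53.9%. Leaving out 1 library turned Parp9 (-0.0097 to 0.051) in LPS against control and Ifit1 (-0.069 to 0.48) in LPS-MIC-1 against control in C2C12, and in muscle Isg15 (-0.025 to 0.50) in LPS against control, Ifi35 (-0.059 to 0.049) and Oas2 (-0.37 to 0.49) in LPS-MIC-1 against LPS, and Sp100 (-0.15 to 0.14) in LPS-MIC-1 against control. The cause was not tested.

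With the replicate block, 12 genes were higher in LPS than in control in C2C12, and in LPS-MIC-1 31 were lower than LPS and 17 lower than control, and in muscle 23 and 21 were higher. The deviations of same-numbered libraries correlated at -0.0757 to 0.0823, and those of differently numbered ones at -0.091 to 0.121. In muscle, LPS and LPS-MIC-1 libraries correlated at 0.0282 to 0.0823 for same numbers and at -0.0662 to 0.00724 for different ones. In no other pair of groups did these ranges stay apart. Whether same-numbered libraries were paired cannot be told from these values. Read numbers per library are unknown, only their ratios could be estimated, and values under 1 FPKM carry an unknown counting error.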
